A study of Mus musculus with 23 samples.

Results

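The haemogenic endothelium (HE), the earliest in development of the populations sorted from these cultures, is the KIT+ Tie2+ CD41- population from which blood cells emerge. The 6 HE arrays were taken by their titles, 3 without and 3 with Dox, from the 23 arrays of the whole series, and every gene with a signal was examined. The cells came from a mouse ES cell line in which an HA-tagged human RUNX1-ETO complementary DNA lay under a Dox-responsive promoter, with both copies of endogenous Runx1 intact, and colonies of this line were picked. Uninduced HE (HE_nodox) received no Dox. Induced HE (HE_plusdox) received 0.1 µg of Dox per ml on day 1 of the blast culture, and both groups were sorted on day 2. The strain is given as C57BL/6 for every sample, and the cultures carry no age. No array of cells that received Dox without the transgene was used here, so that an effect of Dox itself and one of RUNX1-ETO cannot be told apart.

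RUNX1 is the DNA-binding subunit of core binding factor and is needed for HE cells to lose their endothelial form and become blood, a step called the endothelial-haematopoietic transition. The t(8;21) translocation of acute myeloid leukaemia joins its DNA-binding domain to nearly all of ETO (RUNX1T1), a scaffold for corepressors. HE itself expresses endothelial genes such as Cdh5, Kdr and Pecam1 beside low levels of blood regulators, and its response to the fusion protein is thus read against a vessel-like programme.

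Signals are log2 intensities after background correction and quantile normalization. The arrays had between 59.2% and 78.4% of their spots well above background, and these limits were set by an induced and an uninduced array. Across genes the arrays of 1 group correlated at r = 0.967 to 0.984, and arrays of different groups at 0.947 to 0.975, so that the ranges overlapped. The 3 uninduced arrays were on slides 1 and 2, as were the 3 induced arrays, and all were scanned on the same day. All 9 fixed markers of HE (Tek, Kit, Pecam1, Cdh5, Kdr, Cd34, Esam, Sox7 and Sox17) were well above background on all 6 arrays, with a summed log2 intensity of 17.15 to 17.59 without and 17.21 to 17.76 with Dox. Cdh5, the VE-cadherin gene, stood at 14.92, 14.95 and 15.13 without and at 14.09, 14.19 and 14.54 with Dox (log2 change -0.73, adjusted P = 0.0624). Kdr and Cd34 had log2 changes of 0.23 and 0.51, and Pecam1 one of -0.13, none past the threshold. Summed signals of some marker lists of other cell types lay apart between the groups, and a sum weighs the brightest genes most. The summed signal of 9 primitive erythroid markers was 14.97 to 15.40 without and 17.47 to 18.46 with Dox, that of 7 smooth muscle markers 16.82 to 17.91 and 15.50 to 15.78, that of 11 epithelial and endodermal markers 15.19 to 16.42 and 14.56 to 14.76, and that of 6 pluripotency markers 11.49 to 11.88 and 12.90 to 13.24. Single genes that passed the threshold were 3 up and 0 down of the primitive erythroid markers, 0 up and 1 down of the smooth muscle markers, 1 up and 2 down of the epithelial and endodermal markers, and 1 up (Klf4) and 0 down of the pluripotency markers. The median log2 changes of these lists were, in that order, 0.67, -0.91, -0.25 and 0.27. Klf4 alone, at 11.08 to 11.37 without and 12.60 to 13.05 with Dox, came close to the sum of the pluripotency markers. Of these 6 markers, 4 had positive and 2 negative changes, so that their sum shows no shift of the list. Macrophage and granulocyte markers overlapped, at 12.35 to 13.99 and 12.67 to 14.52. In sorted populations, fewer cells of a kind and less RNA in each cell cannot be told apart.

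The genes used for the sort checked the gate and are no finding between the groups. Kit was at 12.29 to 13.28 without and 12.63 to 13.31 with Dox, and Tek (the Tie2 gene) at 10.77 to 13.81 and 11.96 to 14.15. Itga2b, which encodes CD41, was above background in both groups of these CD41- cells. Its log2 intensity was 11.16, 9.49 and 11.46 without Dox and 7.54, 6.92 and 8.02 with Dox, so that the groups did not overlap (log2 change -3.21, SE 0.65, adjusted P = 0.00207). Without uninduced array 3 the change was -2.83 and no longer past the threshold.

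The transgene is human, and the sequences of the probes were not used here, so that whether the mouse Runx1t1 probe also reads the fusion transcript was not tested. Runx1t1 was at 10.56, 11.14 and 10.72 without and 11.90, 12.43 and 11.81 with Dox. All induced arrays lay above the uninduced ones, and the difference of 1.24 was short of the threshold (SE 0.34, adjusted P = 0.0155). The probe of Runx1, which could also read the fused part, gave 11.07, 11.32 and 9.88 without and 10.68, 12.05 and 11.79 with Dox, an overlap (0.75, adjusted P = 0.186). Cbfa2t3, an ETO family corepressor also called ETO2, had a log2 change of -1.06 (adjusted P = 0.0217) on the brightest of its 3 probes, which ranged from -1.06 to 0.19, and Cbfb, the partner subunit of RUNX1, one of -0.32 (adjusted P = 0.375). Of the 6 RUNX, CBFB and ETO family genes tested, 0 passed the threshold in either direction in the limma fit (3 had an unadjusted P up to 0.05), and 3 of the 6, Runx1t1, Runx1 and Runx3, had positive changes. Of the 21 alternatives, Runx1t1 passed under 4, among them the replicate block and an adjusted P of at most 0.05, and Cbfa2t3 under 3, with -1.36 without induced array 3.

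The first question was how many genes responded, and which ones most strongly. A gene was counted as changed at P of at most 0.001 with at least a 2-fold difference in a limma fit across all groups. Of the 15203 genes tested, 715 were upregulated (4.70%) and 363 downregulated (2.39%), with adjusted P values of at most 0.0106. Rises were larger than falls. Of the upregulated genes, 206 changed at least 4-fold and 56 at least 8-fold, against 69 and 6 of the downregulated genes. The median over all genes was -0.0062. All 3 induced arrays lay above all 3 uninduced arrays for 714 of the 715 and below them for 359 of the 363, against 14.2% and 10.8% of all genes tested, and the choice of these genes on the same arrays largely fixes that separation. For 9 upregulated genes no uninduced array, and for 2 downregulated genes no induced array, was well above background, so that these differences are bounds. With the slide as a block the counts were 716 and 366. In the fit of the 6 HE arrays alone the counts fell to 453 and 177, and 447 and 170 of the genes above were among them. With any single HE array left out, 484 of the 715 and 208 of the 363 remained past the threshold every time.

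**Figure D1:**
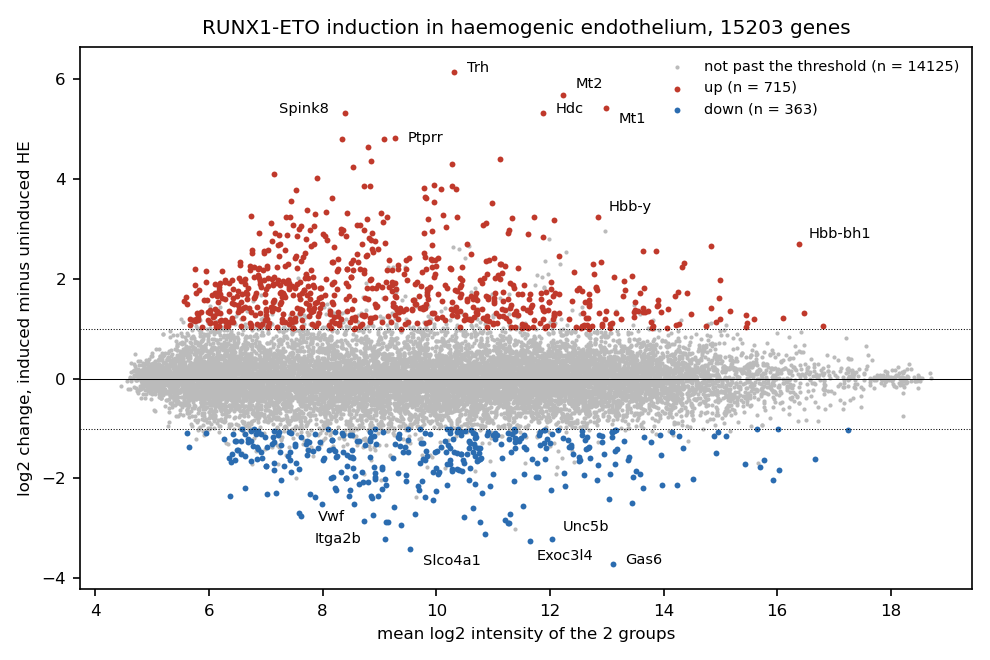
Log2 change with induction of RUNX1-ETO in HE (vertical) against the mean log2 intensity of both groups (horizontal), 1 point per gene, with the 715 upregulated genes in red, the 363 downregulated in blue and 2-fold marked by dotted lines. Rises reach 6.14 (Trh) and falls -3.72 (Gas6), and most of the changed genes rose.

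The largest rises joined genes of unlike function, led by a peptide hormone precursor and the metallothioneins. Trh, the precursor of thyrotropin-releasing hormone, was at 7.71, 7.41 and 6.63 without and 13.80, 13.62 and 12.76 with Dox (log2 change 6.14, SE 0.36, adjusted P = 3.57e-09). Mt2 was at 9.51, 9.72 and 8.94 without and 14.91, 15.10 and 15.22 with Dox, a 51.5-fold rise (adjusted P = 1.06e-09). Mt1 was at 10.63, 10.69 and 9.50 and at 15.62, 15.66 and 15.78 (42.6-fold, adjusted P = 6.36e-09). In each of these genes the lowest induced array lay over 4 log2 units above the highest uninduced one. Metallothioneins are small cysteine-rich proteins that bind zinc and copper, and their promoters respond to metal through repeated short elements.

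The promoters of both, and that of the zinc exporter gene Slc30a1, are shown because the genes share this element and did not move the same way. The sequences are from RefSeq on GRCm38.p6 and run 5′ to 3′ on the strand of the gene, from 250 bases before to 50 after its start. Capitals mark the metal response motif, TGCACNC or TGCGCNC on either strand.
Mt1, chr8:94178839-94179138, strand +: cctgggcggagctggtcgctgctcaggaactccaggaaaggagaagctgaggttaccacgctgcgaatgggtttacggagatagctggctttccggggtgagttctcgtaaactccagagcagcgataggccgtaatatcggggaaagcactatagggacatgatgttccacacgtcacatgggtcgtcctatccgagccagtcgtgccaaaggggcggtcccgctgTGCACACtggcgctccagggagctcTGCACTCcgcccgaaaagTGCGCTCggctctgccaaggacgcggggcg
Mt2, chr8:94172368-94172667, strand +: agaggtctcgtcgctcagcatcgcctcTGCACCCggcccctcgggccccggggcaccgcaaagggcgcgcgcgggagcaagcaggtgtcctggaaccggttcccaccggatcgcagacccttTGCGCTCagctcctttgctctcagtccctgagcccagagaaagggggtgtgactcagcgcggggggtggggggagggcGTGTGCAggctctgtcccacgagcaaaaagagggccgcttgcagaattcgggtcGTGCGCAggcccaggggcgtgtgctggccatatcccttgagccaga
Slc30a1, chr1:191906531-191906830, strand +: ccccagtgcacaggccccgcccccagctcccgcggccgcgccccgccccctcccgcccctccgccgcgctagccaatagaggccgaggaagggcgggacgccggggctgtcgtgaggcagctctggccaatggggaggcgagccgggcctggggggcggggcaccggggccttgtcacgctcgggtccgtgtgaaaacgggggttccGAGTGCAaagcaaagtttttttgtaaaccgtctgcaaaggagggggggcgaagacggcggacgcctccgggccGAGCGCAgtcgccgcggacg

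There were 3 matches in the promoter of Mt1, 4 in that of Mt2 and 2 in that of Slc30a1. The motif is short, and 33.4% of the 15220 promoters of genes tested held at least 1. Slc30a1 fell, from 9.89, 10.79 and 10.68 without to 9.21, 9.36 and 9.44 with Dox (log2 change -1.12, adjusted P = 0.00517), and its call was lost without any of uninduced arrays 2 and 3 and induced arrays 1 and 2, at changes of -0.95 to -1.13. Slc30a2, which moves zinc into vesicles, rose by 1.41 (adjusted P = 0.00121). Of 26 metallothionein and zinc handling genes tested, 3 were up and 1 down, with a median of 0.11, and the other 22 did not pass. Near-identical sequence between Mt1 and Mt2 could let a probe read both, which was not tested.

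Hdc, which makes histamine from histidine, rose from 9.31, 9.44 and 8.93 to 14.29, 14.61 and 14.72 (39.6-fold, adjusted P = 1.92e-07). Spink8, a Kazal-type inhibitor of serine proteases, rose from 5.56, 5.74 and 5.91 to 11.03, 11.44 and 10.72 (40.1-fold, adjusted P = 7.34e-10). Ptprr, a receptor tyrosine phosphatase that acts on MAP kinases, rose from 6.71, 6.85 and 7.03 to 11.79, 11.87 and 11.39 (28.3-fold, adjusted P = 2.38e-09). The groups were at least 3 log2 units apart in each of them. Fam20a, a secreted pseudokinase, Rnf207, a RING finger protein gene, and Prph, which encodes the intermediate filament peripherin, rose by 4.79, 4.79 and 4.64. Plet1, a surface protein gene of placenta and epithelia, rose by 4.39 and Tal2, a basic helix-loop-helix relative of Tal1, by 4.36. These 11 genes were all past the threshold under every alternative run.

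The largest falls were in genes of vessel signalling and adhesion. Gas6, a vitamin K-dependent ligand of the TAM receptor kinases, was at 14.71, 15.15 and 15.06 without and 11.39, 11.69 and 10.67 with Dox (13.2-fold lower, adjusted P = 1.92e-07). Unc5b, a netrin receptor of arteries and sprouting vessels, fell from 13.46, 13.91 and 13.58 to 10.56, 10.85 and 9.91 (log2 change -3.21, adjusted P = 8.8e-06). Cx3cl1, a membrane-bound chemokine of endothelium also called fractalkine, fell from 12.70, 12.88 and 12.56 to 9.92, 10.09 and 9.42 (-2.90, SE 0.20, adjusted P = 4.32e-08). These groups were apart by over 2 log2 units. Slco4a1, an organic anion transporter gene, fell by 3.41, Exoc3l4, related to the exocyst, by 3.25, and Ankrd1, a stretch-responsive cofactor gene, by 3.12. The call of Ankrd1 was lost without induced array 3, at -2.42. Batf3, an AP-1 family factor, Pkp2, a desmosome plaque gene, Ccl17, a chemokine, and Spata13, a Rac and Cdc42 exchange factor, had log2 changes of -2.93, -2.90, -2.87 and -2.87.

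**Figure D2:**
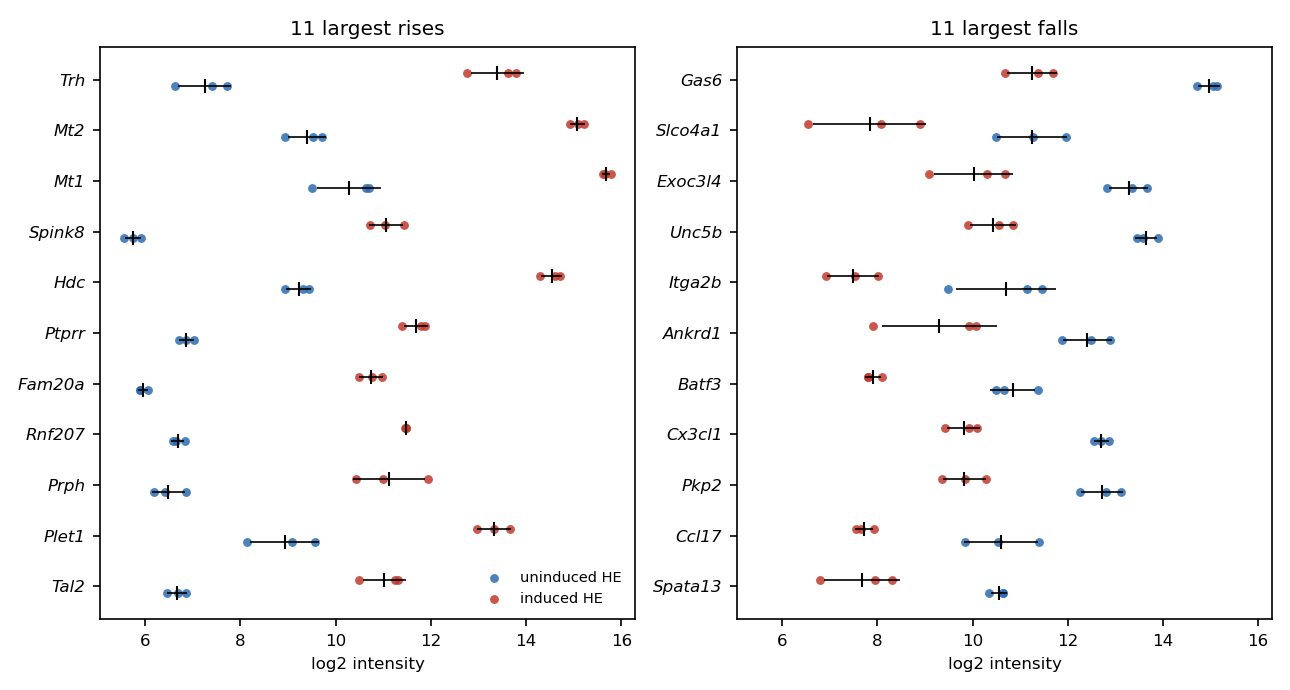
Log2 intensity (horizontal) on each of the 3 uninduced (blue) and 3 induced (red) HE arrays for the 11 genes with the largest rises (left) and the 11 with the largest falls (right), with the mean as a tick and the SD as a line. The 22 genes were chosen among those past the threshold with groups that do not overlap, so the lack of overlap follows from the choice. Itga2b, a gene used for the sort, is among the falls.

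The genes were then read by pathway and family, in lists written with earlier results of these data known, and each count stands beside the share of all genes tested, 4.70% up and 2.39% down. No test of a list was made. Some genes are in several lists, among them Apln, Edn1, Gas6 and Unc5b, so that the counts of different lists are not separate observations. Blood lineage genes moved unevenly. In the erythroid and embryonic globin list, 6 of 28 genes tested were up and 0 down, with a median of 0.15. Hbb-y, an embryonic beta-type globin, was at 11.16, 11.24 and 11.31 without and 13.82, 15.41 and 14.17 with Dox (9.38-fold, adjusted P = 1.45e-06). Hbb-bh1, the other embryonic beta-type globin, was at 15.26, 15.08 and 14.76 and at 17.78, 18.18 and 17.21 (6.45-fold, adjusted P = 1.67e-07). Alas2, the erythroid enzyme that opens haem synthesis, was at 9.73, 11.06 and 9.50 and at 12.53, 14.09 and 13.38 (9.42-fold, adjusted P = 4.11e-05). Induced array 2 was the highest in all 3 of these genes. Hbb-b2 rose by 2.17, but beta globin copies are so alike that its probe could read others. Sptb, the erythrocyte spectrin gene, rose by 1.97, and its call was lost without any of uninduced arrays 1 and 2 and induced array 3 (1.49 to 1.83). The alpha-type globins did not follow. Hba-x was at 8.22, 8.39 and 8.88 without and 7.66, 8.92 and 7.53 with Dox, and Hba-a1 had a log2 change of 0.17 (adjusted P = 0.895). Of the defining erythroid regulators, Klf1 stayed between 5.63 and 6.01 on all 6 arrays, and Gata1 was at 7.92, 8.44 and 7.85 without and 9.12, 10.67 and 8.53 with Dox (adjusted P = 0.0197, not past the threshold). What part an admixture of primitive erythroid cells had in these rises was not tested.

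In the mast cell and basophil list 3 of 10 genes were up and 0 down, and Hdc was the only one of them with a call that held without any single array. Il1rl1, the IL-33 receptor gene, and Cpa3, a mast cell protease gene, rose by 1.83 and 1.33 from near background, and each lost its call without any of 5 of the arrays. Over the alternatives the change of Il1rl1 ranged from 0.92, with the mean of its probes, to 3.42, and that of Cpa3 from 0.87, with the offset of 50, to 3.32, both highest with 75th percentile scaling, and both calls were lost with the offset of 50 and with the deposited values. The lowest of the 3 Il1rl1 probes had a change of 0.39. Megakaryocyte and platelet genes split, with 2 up and 5 down of 25 and a median of -0.07. The count down ran from 1 to 6 over the 21 alternatives and moved by over 1.5 times in 8 of them, with 2 down without uninduced array 2 and 3 down without uninduced array 1, induced array 1 or induced array 3. Clec1b, the podoplanin receptor of platelets, rose from 10.96, 10.32 and 10.09 to 13.31, 13.35 and 13.24 (7.17-fold, adjusted P = 1.19e-06). Gp1ba, a subunit of the von Willebrand factor receptor, fell from 8.79, 9.72 and 9.41 to 6.75, 7.81 and 6.81 (log2 change -2.18, adjusted P = 8.64e-05). Thbs1, encoding thrombospondin 1, fell by 1.51, and without uninduced array 2 the change was -1.25 and past the threshold no longer. Of the 38 myeloid granule and macrophage genes, 3 were up (7.89%) and 2 down (5.26%) with a median of -0.08, against 4.70% and 2.39% of all genes. Of these 5 calls, 0 held in the fit of the 6 HE arrays alone and 2 held without any single array.

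Among 31 haematopoietic transcription factors, 3 were up and 3 down, and the count down ran from 1 to 6 over the 21 alternatives, moving by over 1.5 times in 8 (6 without induced array 2, 1 without induced array 3). Lyl1, a basic helix-loop-helix factor of blood and endothelium that binds the same partners as Tal1, fell from 14.76, 14.85 and 14.44 to 11.41, 12.51 and 12.65 (5.65-fold, adjusted P = 1.94e-06). Hhex and Irf8, regulators of early endothelium and of monocyte fate, rose by 1.30 and 1.52 (adjusted P = 5.13e-05 and 0.000292). Lmo2, the bridging subunit of the TAL1 complex, rose by 1.06 and lost its call without any of uninduced array 3 and induced arrays 1 and 3, at 0.81 to 1.04. Nfe2 fell by 1.19 and Cebpd by 1.22, and their calls were lost without any of 4 and 3 of the arrays, with Nfe2 at -0.77 without induced array 1. Spi1, which encodes PU.1, lay between 4.94 and 5.71 in HE and was well above background on 2 uninduced arrays and 1 induced array. Gfi1, Gfi1b and Myb, which act early in blood formation, had log2 changes of -0.62, 0.11 and -0.93, none past the threshold, and the sign of Gfi1b turned without uninduced array 3 or induced array 2 (-0.34 and -0.15). Etv2, an ETS factor that starts the endothelial and blood programme, fell by 1.37 (adjusted P = 0.00751), the only called gene of 21 ETS factors, and lost its call without any of 5 of the arrays.

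Receptors for blood cytokines were among the lists with a higher share of rises, with 5 up and 1 down of 35 and a median of 0.38. The count of rises depended on the processing, with 0 to 5 over 21 alternatives, 11 of which moved it by over 1.5 times, among them 2 rises without uninduced array 1, induced array 1 or induced array 2. Il10ra rose from 5.60, 4.79 and 5.86 to 7.65, 7.59 and 6.93 (log2 change 1.97, adjusted P = 0.000289). It was well above background on 2 of the 3 uninduced arrays, its change ranged from 1.39 to 3.56 over the alternatives (the highest with 75th percentile scaling), and its call was lost under the replicate block. Il2rg, the gamma chain shared by several interleukin receptors, fell from 10.69, 10.56 and 11.72 to 8.20, 8.74 and 8.92 (-2.37, adjusted P = 3.23e-05). Il1r1 and Csf2rb2 rose by 1.67 and 1.57, and their calls were lost without any of 3 and 5 of the arrays. Among 16 genes used as markers of t(8;21) leukaemia, 3 were up and 1 down. Besides Trh these were Ncam1 (CD56), which rose from 9.85, 10.30 and 9.94 to 12.37, 12.15 and 11.58 (4.01-fold, adjusted P = 3.18e-05), Cav2, which rose by 1.59, and Tspan32, which fell by 2.16. This list was drawn up with earlier results of these data known and is no independent evidence of a direction.

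Endothelial genes did not move as a block. Of 34 genes of endothelial identity 3 were up and 0 down, with a median of 0.20. Robo4, a guidance receptor of endothelium, was at 13.75, 13.56 and 13.33 without and 15.36, 15.09 and 15.35 with Dox (3.29-fold, adjusted P = 0.0015). Cldn5, the main claudin of endothelial tight junctions, was at 12.09, 10.71 and 12.40 and at 14.27, 12.94 and 15.00 (5.07-fold, adjusted P = 0.00391), and Flt4, the VEGFR3 gene, rose by 1.23. The call of Cldn5 was lost without any of uninduced array 2 and induced arrays 1 and 3 (1.83 to 2.24) and that of Flt4 without any of 4 arrays (0.94 to 1.36). In the fit of the 6 HE arrays 1 of the 3 calls held.

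Genes that distinguish arteries from veins were lower where they passed the threshold, with 0 up and 3 down of 15 and a median of -0.40. Besides Unc5b they were Gja4, encoding the arterial gap junction protein connexin 37, at 13.81, 13.73 and 14.00 without and 11.51, 11.90 and 12.07 with Dox (-2.02, adjusted P = 2.07e-05), and Nr2f2, the venous factor COUP-TFII, at 9.90, 9.88 and 9.61 and at 8.18, 8.18 and 7.71 (-1.77, adjusted P = 9.93e-06). The 3 genes thus include arterial and venous ones, and their calls held without any single array. Notch pathway genes, which set arterial fate, gave 2 up and 3 down of 27. Notch2 fell by 1.48 with its brightest probe and had a change of -0.41 on its other probe. Dtx1, a regulator of Notch, rose by 1.99 (adjusted P = 0.000488). Hes1 and Jag2 fell by 1.12 and 1.25 with calls that were each lost without any of 5 of the arrays, and Notch1 had a log2 change of 0.26.

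In coagulation and fibrinolysis 1 of 21 genes was up and 4 were down. Vwf, the clotting protein stored in endothelium, was at 10.27, 9.89 and 10.28 without and 6.96, 7.85 and 7.07 with Dox. F2r, the thrombin receptor PAR1, was at 16.05, 16.53 and 17.15 and at 15.01, 14.91 and 14.95 (-1.62, adjusted P = 3.24e-05). F2rl3, encoding the thrombin receptor PAR4, fell by 2.38 (adjusted P = 0.000259). F8, encoding clotting factor VIII, rose by 1.64, and its call was lost without uninduced array 1 or induced array 1 (1.37 and 1.27). The median of the list was nevertheless 0.11, so that the falls were those of a few genes. Of 20 genes of vascular tone 1 was up and 3 were down. Edn1, the precursor of endothelin 1, fell from 11.82, 12.27 and 11.74 to 10.55, 10.49 and 9.08 (-1.91, adjusted P = 0.00156), while the receptor gene Ednra rose from 7.96, 8.15 and 8.30 to 10.07, 10.58 and 10.27 (4.5-fold, adjusted P = 1.12e-05). Apln, the ligand of the apelin receptor of angioblasts, fell by 1.93, with its call lost without uninduced array 1 or induced array 3 (-1.62 in each case).

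Of the cell junction genes 3 were up and 3 down of 30. Cldn15 rose 5.58-fold and Cldn3 2.6-fold (log2 change 1.38, and 1.01 to 2.13 over the alternatives), and Pkp2 fell. Leukocyte adhesion molecules gave 1 up and 2 down of 18. Madcam1, the mucosal addressin, fell from 13.91, 13.63 and 14.49 to 11.66, 12.34 and 12.31 (-1.91, adjusted P = 0.000679) and Cd44, the hyaluronan receptor, by 1.80 on its brightest probe, with -0.41 on the least changed of 4 probes. Cd47, a signal against uptake by macrophages, rose by 1.33.

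**Figure D3:**
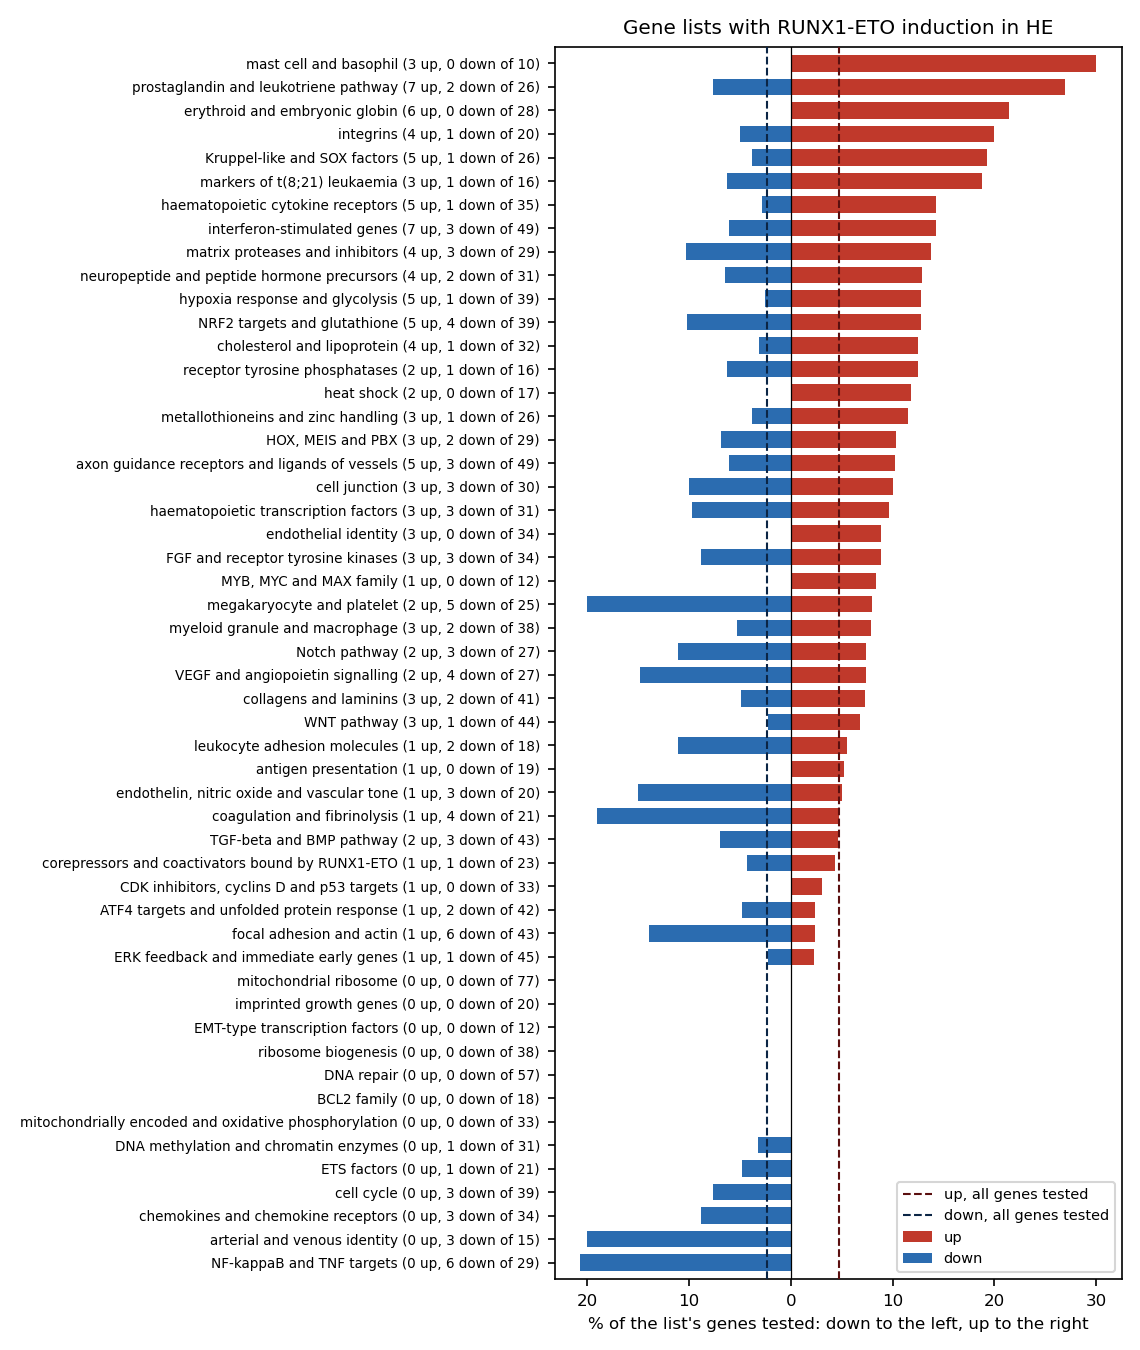
Share of each list's genes tested (horizontal, %) that were up (red, right) or down (blue, left) with Dox in HE, for lists with at least 10 genes tested, with dashed lines at the shares of all genes, 4.70% up and 2.39% down. The marker lists of other cell types are left out, and some genes are counted in several lists. Among the lists shown, mast cell (3 of 10), prostaglandin and leukotriene, erythroid and integrin lists have the highest shares up, NF-kappaB, arterial and venous, and megakaryocyte lists the highest shares down (the count of the last varied with the setting, from 1 to 6), and 7 lists have none of either.

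Lipid mediator genes stood out by their share of rises. Prostaglandins and leukotrienes are made from arachidonic acid, and prostacyclin and thromboxane are the main vascular members. In this pathway 7 of 26 genes tested were up and 2 down, with a median of 0.23, and 7 of the 9 calls held without any single array. Among degrading enzymes, Pla2g7, which hydrolyses platelet-activating factor, rose from 5.94, 6.22 and 7.10 to 10.14, 10.72 and 11.09 (18.7-fold, adjusted P = 1.09e-05), with a log2 change of 4.23 on this probe and 2.03 on the other. Hpgd, which inactivates prostaglandins, rose from 7.45, 6.86 and 7.40 to 10.36, 10.11 and 10.19 (7.91-fold, adjusted P = 2.08e-06). Among receptors, Ptgir, the prostacyclin receptor gene, rose from 5.52, 5.85 and 5.85 to 9.11, 9.20 and 8.63 (9.43-fold, adjusted P = 1.77e-07). Among synthases, Ptgis, which makes prostacyclin, fell from 12.30, 13.02 and 12.20 to 10.19, 10.81 and 10.77 (-1.92, adjusted P = 2.82e-05). The prostacyclin receptor and the prostacyclin synthase thus went in opposite directions. Tbxas1, the thromboxane synthase gene, rose by 2.22 (adjusted P = 0.00703), but its call was lost with any one of the 6 arrays left out, at changes of 2.04 to 2.38. Alox12, the platelet lipoxygenase gene, rose by 1.67.

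Of 29 NF-kappaB and TNF target genes 0 were up and 6 down, the list had a median of -0.37, and 23 of the 29 had a negative change, against 50.5% of all genes. Of the 6 calls, 3 held without any single array. After Cx3cl1 the largest fall was in Nfkbie, an inhibitor that NF-kappaB itself induces, from 10.61, 10.97 and 10.75 to 8.32, 9.21 and 8.66 (-2.05, adjusted P = 3.22e-06). Irf1, induced by interferon and TNF, fell by 1.33. Csf1, the macrophage growth factor gene, and Tnfaip2 fell by 1.79 and 1.90, and each lost its call without any of 4 of the arrays, so that with 1 array left out between 3 (without induced array 3) and 6 genes of the list fell. Chemokines and their receptors gave 0 up and 3 down of 34, with Cx3cl1, Ccl17 and the scavenging receptor gene Ackr3, which fell by 1.74 (adjusted P = 0.00109).

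Interferon-stimulated genes gave 7 up and 3 down of 49 with a median of 0.12 and changes from -1.55 to 3.88. Of the 10 calls, 8 held without any single array and 5 in the fit of the 6 HE arrays alone. The called genes given here are those with the largest changes, all of them rises. Ifi27 rose from 7.69, 8.03 and 8.33 to 11.40, 12.11 and 12.18 (14.7-fold, adjusted P = 8.04e-08), Oas1a, a sensor of double-stranded RNA, from 6.18, 5.87 and 5.96 to 8.44, 8.82 and 8.13 (5.5-fold, adjusted P = 3.78e-06), and Trim30a from 7.07, 7.32 and 7.65 to 9.67, 9.82 and 9.69 (5.21-fold, adjusted P = 3.58e-07). Oas2 and Parp14 rose by 1.90 and 1.58, Oas2 from near background (1.26 to 3.62 over the alternatives). The call of Parp14 was lost in the fit of the HE arrays alone and under the replicate block. Other genes of this response did not pass, among them Isg15 at 9.11 to 9.98 without and 9.46 to 10.42 with Dox, which was chosen after its values were seen. The promoter of Oas1a is shown since it holds the interferon response motif GAAANNGAA in overlapping copies, marked in capitals. The motif was present in 7.31% of all promoters, in 7.59% of those of upregulated genes and in 3.74% of those of downregulated genes. The Oas genes are close copies, and the other probe of Oas1a had a change of 0.46.
Oas1a, chr5:120907476-120907775, strand -: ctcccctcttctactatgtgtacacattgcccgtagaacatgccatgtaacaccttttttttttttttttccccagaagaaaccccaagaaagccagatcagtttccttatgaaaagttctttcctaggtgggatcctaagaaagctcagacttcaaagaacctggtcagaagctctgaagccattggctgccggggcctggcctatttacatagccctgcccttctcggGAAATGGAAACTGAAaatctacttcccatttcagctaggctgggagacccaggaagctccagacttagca

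Adhesion genes changed in both directions. Of 20 integrin genes 4 were up and 1 down, with a median of 0.30. Itgb7, which pairs with alpha 4 in homing to mucosa, rose from 6.69, 7.27 and 6.78 to 10.02, 10.88 and 11.39 (14.4-fold, adjusted P = 2.45e-07). Itga8 rose from 5.85, 6.75 and 7.90 to 9.31, 10.17 and 9.96 (7.91-fold, adjusted P = 5.37e-05). The laminin receptor subunit genes Itgb4 and Itga6 rose by 2.69 and 1.42 (adjusted P = 9.34e-06 and 0.000118), and the 4 rises held without any single array. Itgb5, a vitronectin receptor subunit gene, fell by 2.14, and its call was lost without any of uninduced arrays 2 and 3 and induced array 1 (-1.85 to -2.13). Focal adhesion and actin genes gave 1 up and 6 down of 43 with a median of -0.23. Flnc, encoding filamin C, fell from 13.31, 13.53 and 13.06 to 11.77, 11.61 and 11.80 (-1.57, adjusted P = 0.00013) and Parva, encoding a partner of integrin-linked kinase, by 1.60. Pdlim1 and Tns3 fell by 1.15 and 1.09, and their calls were lost without any of 3 arrays and without induced array 3. Smooth muscle markers share these functions and were lower as a sum, as given above. Their genes did not all fall, with 5 negative and 2 positive changes of 7, from -2.01 to 2.10, and a median of -0.91. All induced arrays lay below all uninduced arrays for 4 of them and above for 1. Acta2, the smooth muscle actin gene and the 1 called gene of the 7, was at 15.11, 16.11 and 15.32 without and 13.78, 13.52 and 13.23 with Dox (-2.01, adjusted P = 0.00329), a call lost without uninduced array 2 (-1.71) or induced array 3 (-1.86), and Tagln at 16.40, 17.27 and 15.84 and at 14.77, 15.10 and 14.58 (adjusted P = 0.0211, not past the threshold). Uninduced array 2 was highest in both. The part of smooth muscle-like cells in the falls was not tested.

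Among 41 collagen and laminin genes 3 were up and 2 down, and over the 21 alternatives the count down ran from 0 to 10, moving by over 1.5 times in 14, so that the balance of directions depended on the setting (0 down without uninduced array 2, 5 down without uninduced array 1). Col6a1 rose from 7.97, 8.18 and 7.96 to 9.99, 10.20 and 10.45 (4.52-fold, adjusted P = 1e-05), and Col3a1 by 1.83 (adjusted P = 0.000418). Col1a1, whose product is laid down with that of Col3a1 in fibrous matrix, had a change of -2.07 (adjusted P = 0.0103), and its call was lost without any of 5 of the arrays. Matrix proteases and their inhibitors gave 4 up and 3 down of 29. Adam19, a membrane metalloprotease gene of heart and vessel formation, fell from 12.60, 12.52 and 13.30 to 10.47, 9.79 and 10.51 (-2.55, adjusted P = 6.7e-05). Timp2 fell by 1.87 and Timp3 rose by 1.34, the rise being lost without uninduced array 2 or induced array 1 (1.20 and 0.93). The fibroblast surface gene Thy1 rose from 6.23, 6.52 and 5.92 to 8.97, 9.61 and 9.95 (9.78-fold, adjusted P = 2.77e-06), while Pdgfrb, another stromal marker, fell by 1.82, and the summed stromal markers overlapped between the groups, at 13.46 to 15.29 and 13.97 to 14.23.

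Growth factor signalling changed in single genes. Of 34 FGF and receptor tyrosine kinase genes 3 were up and 3 down. Mst1r, the receptor kinase RON, rose from 5.95, 6.00 and 5.74 to 9.39, 10.14 and 10.16 (16.1-fold, adjusted P = 1.29e-07) and Alk, another receptor kinase gene, from 5.66, 5.51 and 5.65 to 7.84, 8.28 and 7.43 (4.74-fold, adjusted P = 1.88e-06). In the TGF-beta and BMP pathway 2 of 43 were up and 3 down. Ltbp2 rose by 2.77, and Bmp2, which opens vessel and heart development, fell from 12.73, 13.50 and 13.26 to 11.20, 11.97 and 11.79 (-1.51, adjusted P = 0.000298). Smad3 fell by 1.20 on its brightest probe. In the WNT pathway 3 of 44 were up and 1 down. Wnt4 fell by 2.00 (adjusted P = 0.000184) and Nkd1, an inhibitor induced by WNT, and Rspo1, an enhancer, rose by 1.66 and 1.70. In VEGF and angiopoietin signalling 2 of 27 were up and 4 down, among them Pdgfb, the ligand that draws pericytes, which fell from 14.98, 14.89 and 14.68 to 13.79, 13.53 and 13.77 (-1.16, adjusted P = 0.00146), and Ptprb, the phosphatase of Tie2, which rose by 1.36, or by 1.14 and short of the threshold without induced array 1. Of 45 ERK feedback and immediate early genes 1 was up and 1 down, with 1 to 6 up (the most by 2-fold change alone) and 0 to 2 down over the 21 alternatives, 7 of which moved the count up and 13 the count down by over 1.5 times. Without induced array 3 there were 3 up and 0 down. Klf4 rose from 11.24, 11.37 and 11.08 to 12.96, 13.05 and 12.60 (3.12-fold, adjusted P = 3.33e-05). Of 49 vessel guidance genes 5 were up and 3 down, with Unc5a rising by 1.92 where Unc5b fell. Over the 21 alternatives 2 to 7 of these genes were up and 1 to 6 down, and each count moved by over 1.5 times in 5. Of the 8 calls, 4 held without any single array.

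Neuropeptide and peptide hormone precursors gave 4 up and 2 down of 31, with a median of 0.31. The 2 falls, Apln and Edn1, were also counted above among the genes of vascular tone. After Trh, the next largest rises were in Tac4, a tachykinin precursor made by blood cells, from 6.00, 6.11 and 5.52 to 8.29, 8.97 and 8.40 (6.39-fold, adjusted P = 1.73e-06), and Pnoc, the nociceptin precursor, from 7.96, 8.24 and 8.94 to 10.24, 10.76 and 10.69 (4.55-fold, adjusted P = 2.84e-05).

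**Figure D4:**
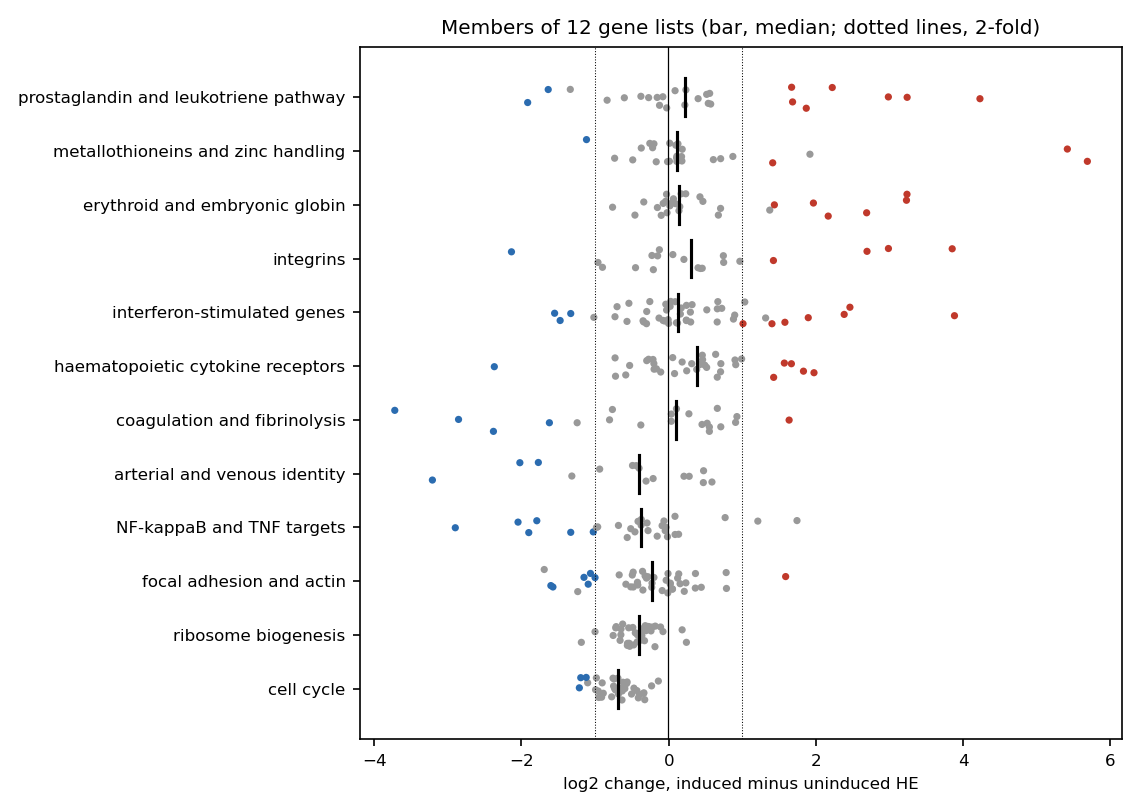
Log2 change with Dox in HE (horizontal) of each gene tested in 12 lists, with genes past the threshold in red (up) or blue (down), the list median as a bar and 2-fold marked by dotted lines. Metallothioneins and lipid mediators show a few large rises around medians near 0, and cell cycle and ribosome biogenesis genes a small shift of nearly all members.

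In metabolism and stress, genes of xenobiotic and glutathione defence gave 5 up and 4 down of 39. The transferases Gstm1, Mgst1 and Mgst2 rose by 1.70, 1.80 and 1.94 (adjusted P at most 0.000202), while Gclm, which makes the precursor of glutathione, and Fth1, the ferritin heavy chain that stores iron, fell by 1.69 and 1.60 (adjusted P = 0.000307 and 2.45e-05). Members of the list thus moved against each other. Hypoxia response and glycolysis gave 5 up and 1 down of 39. Ndrg1 rose from 9.70, 9.56 and 9.82 to 12.01, 11.93 and 12.19 (5.1-fold, adjusted P = 2.73e-06), Aldoc by 1.87 and Epas1, which encodes the endothelial hypoxia factor HIF-2 alpha, by 1.62 on its brightest probe and by 0.26 on the least changed of 3. Egln3, a prolyl hydroxylase gene induced by hypoxia, fell by 1.70. Abcg1 and Abca1, which encode exporters of cholesterol, rose by 1.52 (adjusted P = 0.000847) and 1.49, the latter call lost without uninduced array 1 or induced array 1 (1.34 and 1.29), and the cholesterol and lipoprotein list gave 4 up and 1 down of 32, with 27 not past the threshold. Hspa1a and Hspb1, encoding heat shock proteins, rose 5.19-fold and 4.95-fold and were the called genes of 17, with 0 down. In the ATF4 and unfolded protein list 1 was up and 2 down of 42, where Phgdh, the first enzyme of serine synthesis, fell from 13.88, 13.67 and 13.59 to 11.55, 11.94 and 12.43 (-1.74, adjusted P = 8.05e-05), and Psat1, the next enzyme, by 1.27 (adjusted P = 7.69e-05). Of 33 mitochondrially encoded and oxidative phosphorylation genes and of 77 mitochondrial ribosome genes, 0 passed in either direction in the limma fit (2 and 9 at an unadjusted P of at most 0.05), with medians of -0.09 and -0.15.

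All 39 cell cycle genes tested had negative log2 changes, between -1.21 and -0.14, with a median of -0.69 against -0.0062 over all genes. For 24 of the 39 (61.5%) all induced arrays lay below all uninduced arrays, against 10.8% of all genes, but 3 passed the threshold, E2f1, E2f8 and Cdc6. E2f1, a factor for entry into S phase, was at 11.57, 11.82 and 11.55 without and 10.13, 10.73 and 10.44 with Dox (-1.21, adjusted P = 0.000107). E2f8 and Cdc6 fell by 1.20 and 1.12, and their calls were lost without any of 4 and 2 of the arrays. Mki67, the common marker of dividing cells, was at 14.78, 14.94 and 14.78 and at 14.13, 14.57 and 14.01 (-0.60, adjusted P = 0.0176, under 2-fold). Ribosome biogenesis gave 0 calls of 38 in the limma fit (11 at an unadjusted P of at most 0.05), with 36 negative changes, a median of -0.41 and 9 genes (23.7%) with all induced arrays below the uninduced ones. DNA repair gave 0 calls of 57 (18 at an unadjusted P of at most 0.05), with a median of -0.24 and 42 negative changes. Genes of a list are not independent of each other. Of 18 BCL2 family genes, 12 EMT-type transcription factors and 20 imprinted growth genes, 0 passed the threshold (7, 5 and 5 had an unadjusted P up to 0.05), and Sesn1, a p53 target, was the called gene of 33 cell cycle inhibitor and p53 genes, with a rise of 1.80 (adjusted P = 3.33e-05). Mxd1, which opposes MYC at its sites, rose by 1.25 (adjusted P = 0.000105).

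Developmental transcription factors gave 3 up and 2 down of 29 HOX, MEIS and PBX genes. Hoxa5, Hoxd3 and Hoxd1 rose by 1.84, 1.79 and 1.68 and Hoxb2 fell by 1.47. Hoxb5 fell by 1.02 (adjusted P = 0.0106), but its call was lost whichever single HE array was left out, at changes of -0.87 to -1.11. Of 26 Kruppel-like and SOX factors 5 were up and 1 down, with Sox11 rising from 9.16, 9.71 and 8.99 to 11.33, 11.03 and 10.95 (3.52-fold, adjusted P = 0.000173) and Klf7 by 1.54 (adjusted P = 0.000194). Sox17, a factor of HE itself, was at 12.10, 12.29 and 12.63 without and 12.08, 11.67 and 11.68 with Dox, so that the groups did not overlap but lay next to each other (-0.53, adjusted P = 0.294). Of 17 heart muscle genes 4 were up and 3 down, with Hand1 falling by 2.34, a call lost without any of 3 of the arrays, and Mybpc3, a sarcomere gene outside that list, rising from 8.16, 9.44 and 7.81 to 11.63, 11.97 and 11.65 (9.71-fold, adjusted P = 7.17e-06).

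RUNX1 binds a core sequence written here as TGTGGT and read on either strand, and the fusion protein keeps its DNA-binding domain. The promoters of the genes were searched for it. It was in 12.2% of the 711 promoters of upregulated genes and 14.2% of the 374 promoters of downregulated genes, beside 13.2% of all 15220, where 12066 of the 15203 genes had at least 1 promoter in the table. The metal response motif was in 32.3% and 37.4% beside 33.4%, the CRE motif TGACGTCA in 1.97% and 1.87% beside 2.71%, and the AP-1 motif TGAGTCA in 4.36% and 5.08% beside 4.02%. All motifs were searched on either strand. The search covers 300 bases at the start of each gene and not distant sites. Of the 11 genes with the largest rises, 9 had a promoter in the table, and Ptprr was the one of them with a RUNX core, in 1 of its 4 promoters, and that promoter is shown with the core in capitals.
Ptprr, chr10:116018113-116018412, strand +: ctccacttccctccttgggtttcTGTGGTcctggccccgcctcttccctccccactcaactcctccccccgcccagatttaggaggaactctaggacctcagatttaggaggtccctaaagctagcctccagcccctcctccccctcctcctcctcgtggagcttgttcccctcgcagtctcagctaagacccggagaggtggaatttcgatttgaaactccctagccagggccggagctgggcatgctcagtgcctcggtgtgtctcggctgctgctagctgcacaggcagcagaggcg

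The last question was which responses differed between HE and the next stage, and HE2, the CD41+ cells that still carry Tie2, served as the comparison. HE2 had 3 arrays without and 3 with Dox. Dox was given as for HE, at 0.1 µg per ml on day 1, and HE2 was also sorted on day 2. The interaction term, the change with Dox in HE2 minus that in HE, passed the threshold for 205 genes (1.35% of those tested), 95 with a higher and 110 with a lower value in HE2, with adjusted P values of up to 0.0696. Among the leading genes, Mt1 rose by 5.41 in HE and 2.92 in HE2 (interaction -2.49, SE 0.47, adjusted P = 0.0179), and Gas6 fell by 3.72 and 1.57 (2.15, SE 0.42, adjusted P = 0.0208). Other rises were also larger in HE. Cpxm2, a carboxypeptidase-like gene, had log2 changes of 2.92 and 0.08 (interaction -2.85, adjusted P = 0.00127), Mybpc3 of 3.28 and 0.23 (-3.05, adjusted P = 0.00979), Ptgir of 3.24 and 0.70 (-2.54, adjusted P = 0.00523), Alk of 2.25 and 0.04 (-2.21, adjusted P = 0.00523) and Oas2 of 1.90 and -0.08 (-1.97, adjusted P = 0.0191). Tyrobp, the adaptor of myeloid receptors, rose by 2.04 in HE and had a change of -1.04 in HE2 (-3.07, adjusted P = 0.0085). The HE call of Tyrobp was lost in the fit of the 6 HE arrays alone, also with these normalized alone, and under the replicate block. Falls of the vessel genes Gja4 (-2.02 and -0.03), F2r (-1.62 and -0.06), Madcam1 (-1.91 and 0.22) and Pdgfb (-1.16 and 0.28) were likewise larger in HE, with interaction terms of 2.00, 1.56, 2.13 and 1.43 (adjusted P = 0.0119, 0.0187, 0.0423 and 0.0381). The myeloid genes Spi1, Ccl9 and Emilin2 had log2 changes of -0.30, 0.43 and 0.63 in HE, none past the threshold, and of -2.74, -3.02 and -2.58 in HE2 (interaction -2.44, -3.45 and -3.21, adjusted P at most 0.032), where Spi1 was close to background in HE as given above. Cck, a peptide hormone precursor, had a log2 change of 0.70 in HE, not past the threshold, and of 4.06 in HE2 (3.36, adjusted P = 0.0085).

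**Figure D5:**
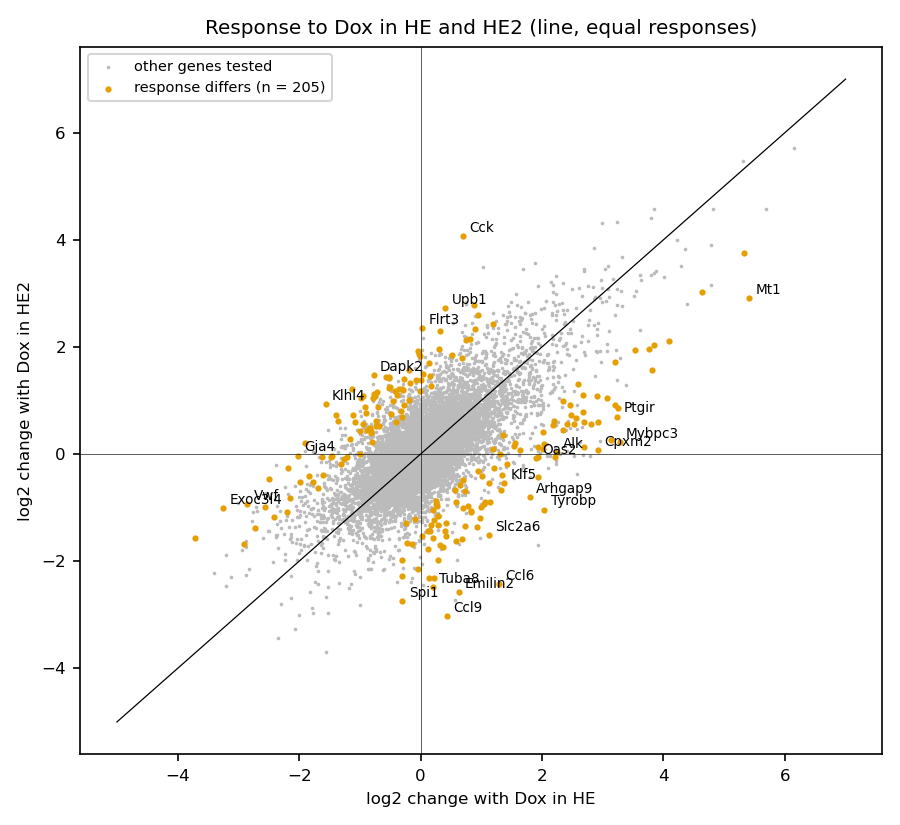
Log2 change with Dox in HE2 (vertical) against that in HE (horizontal), 1 point per gene, with the 205 genes whose response differed by the interaction term in orange and a line at equal responses. Mt1, Ptgir and Cpxm2 lie below the line, Cck and Upb1 above it.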

How the data were processed

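Total RNA of 23 samples was labelled with Cy3 and hybridised to 1-colour Agilent mouse arrays. The deposited scanner files hold spot intensities that the authors extracted with Agilent Feature Extraction, version 10.7.1.1 per the submitters' processing notes and 10.7.3.1 per the file headers. The deposited series table holds log2 values that the authors normalized, and served as an alternative. Arrays have no read depth, and their precision is limited by how many there are.

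Median intensities were background corrected in limma 3.58.1 (R 4.3.3) by normexp with an offset of 16 and quantile normalized over all 23 arrays. Control spots and outlier-flagged spots were left out, and spots of a probe were averaged. Symbols came from probe accessions through RefSeq names of GRCm38.p6, which named 26582 of 55681 probes. A gene took its probe with the highest mean and was tested where log2 reached 6.5 on at least 1 array. Means per group were fitted over 22 arrays, with 1 progenitor array of unclear label normalized but not fitted. Genes were called at P of at most 0.001 and 2-fold, and Benjamini-Hochberg adjusted P values of limma are given. A summed level is the log2 of the sum of linear signals. The script was tested on simulated data. The labels call the replicates biological. P values rest on the spread between replicates pooled over all fitted groups, not on that of the HE arrays alone. Replicate numbers did not pair the arrays.

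The members and gene lists were chosen with earlier results of these data known. Genes named were the 12 largest rises and falls with groups apart, up to 5 called genes per list with the largest changes, a fixed set (the RUNX, CBFB and ETO family, Kit, Tek, Itga2b, Pecam1, Cdh5, Kdr, Cd34, Spi1, Gfi1, Gfi1b, Myb, Sox17, Notch1, Mki67 and Col1a1) and the 10 largest differences in response to HE2 in each direction. Cell type markers and 1 gene said to be chosen later were added, and some genes under the rule are not reported here. Lists and promoter motifs are described without a test. Alternatives covered background correction, offset, scaling, the deposited values, the arrays fitted, filters, the probe rule, thresholds, slide, scan day, replicate number and each array left out.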

Additional observations from a re-analysis of the deposited data

Results flagged for a closer look

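The Dox responses of 44 named genes were unlike in HE and HE2 by the interaction term, given here as the log2 change in HE2 minus that in HE. Among genes of vessels and adhesion the difference was 2.15 for Gas6, 1.93 for Vwf, 1.56 for F2r, 2 for Gja4, 1.24 for Nr2f2, 1.43 for Pdgfb, 1.43 for Ltbp1, 2.13 for Madcam1, 1.22 for Cx3cl1, -1.82 for Itgb7 and -1.75 for Cldn15. Among secreted peptides, metal binding and lipid genes it was -2.49 for Mt1, -1.57 for Spink8, -1.57 for Tac4, 3.36 for Cck, -2.54 for Ptgir, -1.66 for Nr1h3 and -1.99 for Mgst2. Among transcription factors it was -2.44 for Spi1, 1.95 for Sox17, -1.91 for Klf5 and 1.84 for Hes1.

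Among immune genes the difference was -1.55 for Oas1a, -1.97 for Oas2, -3.07 for Tyrobp, -3.72 for Ccl6 and -3.45 for Ccl9. Among signalling genes it was -2.21 for Alk, 2.12 for Trib1, 2.24 for Dapk2, 2.03 for Igfbp3, 2.34 for Flrt3, -1.37 for Ndrg1 and -2.6 for Arhgap9. For the remaining genes it was 2.24 for Exoc3l4, -1.61 for Prph, 2.49 for Klhl4, 2.31 for Upb1, -3.21 for Emilin2, -3.05 for Mybpc3, -2.88 for Nkain4, -2.85 for Cpxm2, -2.69 for Tuba8 and -2.65 for Slc2a6. These calls varied with the processing. Over 27 alternatives the call held in 11 for Prph and Flrt3, 12 for Ndrg1 and Tac4, 13 for Itgb7 and Oas1a, 14 for Cx3cl1, and between 17 and 26 for the others, and that of Ndrg1 was lost without any single HE array. With the adjusted P held to 0.05 the calls of Prph, Exoc3l4, Cx3cl1, Nr2f2, Ndrg1, Itgb7, Oas1a, Tac4 and Flrt3 were lost. No explanation of these differences was tested.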

How the results depend on the processing

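The counts rest on the pooled estimate of spread from all groups. With the compared arrays normalized and fitted alone, 453 genes rose, 176 fell and 126 differed in response between HE and HE2, and with only the groups compared in the fit these were 453, 177 and 126. With the adjusted P held to 0.05 the difference from HE2 counted 132 genes, and held to 0.001 it left 446 rises, 193 falls and 0 differences from HE2 in limma, where 1319 genes had an unadjusted P up to 0.05. By 2-fold change alone 549 genes fell and 924 differed from HE2. With 1 array left out, 590 to 691 genes rose, 281 to 412 fell and 140 to 202 differed. The replicate numbers were checked by the correlation of deviations from the group means, at -0.055, 0.694 and -0.0957 for arrays of the same number, and not every array correlated best with its own number. With the replicate block 409 genes rose and 178 fell. Promoters of downregulated genes held the RUNX core in 18.9% and the interferon motif in 1.49% under the stricter adjusted P of 0.001, and the metal response motif in 29.8% under the replicate block. Of the 190 named genes past the threshold, all kept their direction and 89 remained past it under each of the 21 alternatives. Signs turned in genes that did not pass. Flrt3 was at -0.03 with 75th percentile scaling, -0.029 with the slide as a block, -0.556 without uninduced array 1 and -0.149 without induced array 1, between -0.556 and 0.471 over all arrays left out. Notch1 was at -0.009 with the mean of its probes, Pecam1 at 0.695 without uninduced array 3 and 0.535 without induced array 2, Gfi1b at -0.338 and -0.145 without the same arrays, Kdr at -0.076 without induced array 1, and Cbfa2t2 at 0.075 without induced array 3. Over all arrays left out these genes ranged from -0.916 to 0.695 (Pecam1), -0.338 to 0.364 (Gfi1b), -0.076 to 0.542 (Kdr) and -0.172 to 0.075 (Cbfa2t2). The cause of these shifts was not tested. Probes of 1 gene differed for several called genes, whose probe with the weakest change gave 2.93 for Plet1, 1.09 for Ncam1, 1.03 for Cav2, -1.06 for Tspan32, 0.92 for Nkd1, 0.93 for Alox12, 0.47 for Csf2rb2, 0.43 for F8, -0.70 for Smad3 and -0.48 for Tns3. Small list counts moved often, with 0 to 4 myeloid genes down (14 of 21 alternatives), 0 to 3 HOX, MEIS and PBX genes down (15), 0 to 2 ERK feedback genes down (13), 0 to 2 VEGF and angiopoietin genes up (11), 0 to 2 cholesterol genes down (11) and 0 to 8 cell cycle genes down (8). Lists with 0 calls in a direction gained some there in 3 to 7 of the 21 alternatives. These were up to 2 EMT-type factors down (7), 2 DNA repair genes down (3), 1 BCL2 family gene up (3) and 2 NF-kappaB targets up (4). Of the 27 named genes that did not pass, 4 passed under some alternative, Runx1t1, Cbfa2t3, Myb (without induced array 2) and Ccl6 (2-fold change alone). Dim probes limit what can be seen, since 59.2% to 78.4% of spots were well above background.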
